A study of Homo sapiens with 8 samples.

Results

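The regions described here are the entries of 2 RFX7 peak lists that lie far from coding genes and close to other entries of their own list. An entry was a member when its summit lay more than 5 kb from every end of a protein-coding gene and 2 or more other entries of the same list had summits within 100 kb. The rule found 218 of the 505 DMSO entries and, for Nutlin-3a, 260 of 622, which makes 478 of 1127 in all. Both limits use the positions of the peaks, so the crowding of these entries and their distance from genes are given as description only.

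The assay was ChIP-seq, where an antibody pulls down a protein with the DNA it is attached to and that DNA is read by sequencing. HCT116, an established human colorectal carcinoma cell line, was treated for 24 h with 10 µM Nutlin-3a or with DMSO, the solvent alone. Nutlin-3a stabilises the tumour suppressor p53 by blocking MDM2. Each treatment had 2 libraries made with an RFX7 antibody and 2 input libraries (chromatin that was not immunoprecipitated), but 1 peak list per treatment is used, with no value per replicate. Differences between the lists therefore have no replicate check, the depth of each library is unknown, and no test was run over entries, because entries of a cluster share a locus.

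RFX7 belongs to the RFX family of transcription factors, which bind the X-box, a DNA element of inverted half-sites, through a winged-helix domain. Human centromeres and the regions beside them are built mostly of satellite DNA, short units repeated in tandem over long stretches. Many copies of such units are nearly identical, a reference genome holds only some of them, and reads from different copies can map to the same place. ChIP-seq and input libraries alike often show high read counts there.

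The label of a position near centromeres or repeats was compared with the gene annotation, since no map of centromeres or repeats was used. The longest stretch between neighbouring protein-coding gene ends on the same chromosome held 182 DMSO members (83.5%, 95% Wilson interval 78.0 to 87.8%) and 212 Nutlin-3a members (81.5%, 76.4 to 85.8%). Over whole lists, members included, the share was 48.9% (DMSO) and 43.4% (Nutlin-3a), and the distance limit of the rule favours such stretches. Entries under the same distance limit with fewer than 2 neighbours had 65 of 133 (48.9%, DMSO) and 58 of 158 (36.7%, Nutlin-3a) there. Entries within 5 kb of a gene end had 0 in both lists. Of the 478 members, 454 touched no RefSeq gene of any kind and 0 touched a RefSeq promoter window. The distance limit keeps members away from the ends of coding genes, so these counts are partly set by the rule. No such counts are given for all other entries, so they are description only. Inside coding genes lay 14 members, in LOC124905135 on chromosome 22, BAHCC1 on chromosome 17 and TCF7L2 on chromosome 10. Of the 29 clusters formed over both lists, 8 had no member in the longest stretch, among them both clusters on chromosome 4. Whether any member lies in a centromere or a repeat was not tested. The members are therefore called clustered entries below, after the rule.

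Genome sequence was not used here, so the only letters that can be shown come from a microRNA gene under 1 entry of each list. The entries lie in BAHCC1 on chromosome 17 and cover 81400525 to 81400954 (DMSO) and 81400701 to 81400851 (Nutlin-3a). Both span the MIR4740 hairpin, chr17:81400716-81400778 on the minus strand (GRCh38.p14, RefSeq), whose 63 bases are shown with the 2 mature microRNAs in capitals.
MIR4740: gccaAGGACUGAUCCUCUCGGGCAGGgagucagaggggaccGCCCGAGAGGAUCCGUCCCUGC
The 2 entries are shown because they lie at the edge of what the rule takes, 5362 bp (DMSO) and 5283 bp (Nutlin-3a) from the gene end, with 7 further DMSO and 5 further Nutlin-3a entries within 100 kb.

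Clustered entries made up 43.2% of DMSO entries but 28.9% of the bases covered by that list. Their median width was 105 bp (DMSO) and 134 bp (Nutlin-3a), against 184 and 238.5 bp for all other entries. From the curve of q against p, each list was inferred to join a call made with short extended reads and a call made with longer ones. The sources used here do not state this. Clustered entries were assigned mostly to the short call. That call held 177 DMSO members and 92 other DMSO entries, and the long call 37 and 194. For Nutlin-3a the short call held 207 members and 93 others, and the long call 41 and 262. Within the short call the median widths were close, 93 bp for members and 91.5 bp for others (DMSO) and 105 and 98 bp (Nutlin-3a). Within the long call they were 204 and 248.5 bp, and 220 and 299.5 bp. Width itself helped to assign the call, since every entry under 150 bp was placed in the short one. Joining members of a list that lay within 100 kb of each other gave 27 DMSO clusters and 25 Nutlin-3a clusters. Neighbouring summits within a cluster were a median of 1149 bp apart under DMSO (quartiles 443 and 3976 bp) and 1151 bp under Nutlin-3a (quartiles 420 and 3843 bp). The spacing was thus alike in both lists, and 43.5% and 46.8% of the gaps were under 1 kb.

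The authors' fold enrichment (ChIP over local background at the summit) was low among these entries, while their p-values were among the most extreme. The median fold was 1.89 for DMSO (range 1.13 to 5.56) and 1.90 for Nutlin-3a (1.14 to 14.8), against 4.05 and 4.56 for all other entries. The gap was present among the entries assigned to each call, at 1.96 against 3.50 (short) and 1.60 against 4.22 (long) for DMSO. For Nutlin-3a it was 2.0 against 3.53 and 1.83 against 4.91. Assignment rested on p, q and width, so the fold of an entry may come from the other call. The median −log10 p was 38.9 and 47.1, against 16.2 and 18.9. Ranked by −log10 p, 24 of the top 30 DMSO entries and 17 of the top 30 Nutlin-3a entries were clustered. Ranked by fold, 2 of the top 100 DMSO entries and 4 of the top 100 Nutlin-3a entries were.

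The local background was high at these entries. By the definitions MACS2 uses, the deposited fold and p together give the ChIP pileup (extended reads over the summit) and the background expected there. A whole-number pileup, taken as a sign that both values came from 1 call, was found and placed for 181 DMSO and 179 Nutlin-3a members. Since the calls have different scales, each background was divided by the lowest one of the same call. The median was 104 times the lowest value for DMSO members (quartiles 54.4 and 251) and 86.4 times for Nutlin-3a members (44.7 and 181). All other entries had medians of 1.85 and 1.90 times. Isolated entries far from genes (fewer than 2 neighbours) had medians of 3.92 and 3.46 times.

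**Figure D1:**
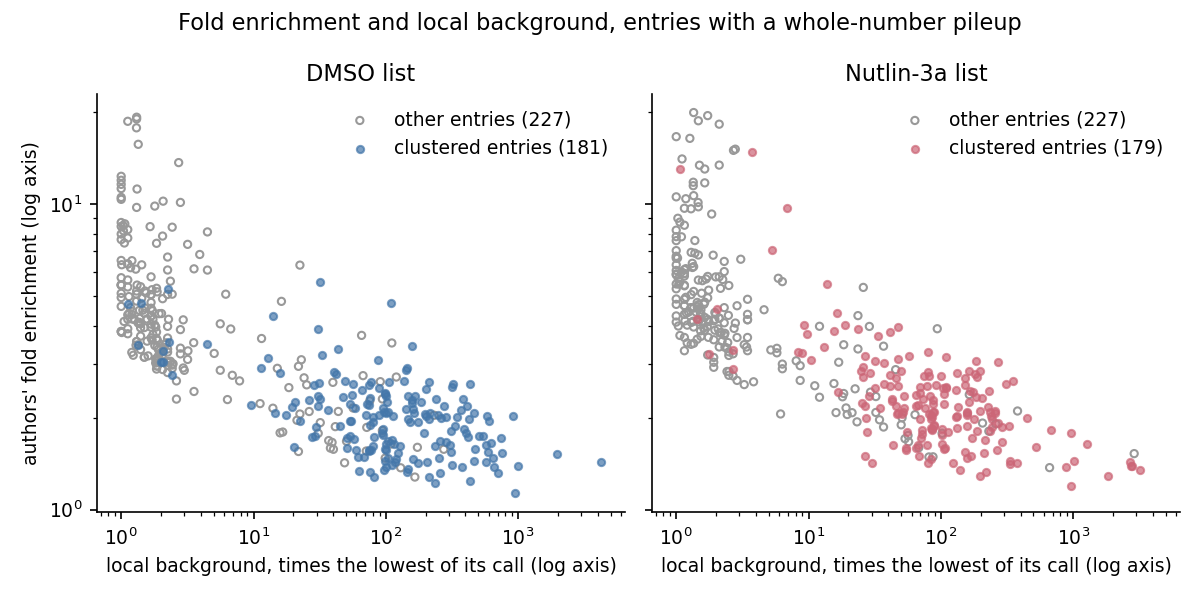
Authors' fold enrichment (y, log axis) against local background as a multiple of the lowest value of the same call (x, log axis), for entries with a whole-number pileup; filled points are clustered entries, open points all other entries. The clustered entries lie toward high background and low fold, with medians of 104 times (DMSO) and 86.4 times (Nutlin-3a).

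Within the clustered entries, fold fell and −log10 p rose as background rose. In the DMSO list the 11 members under 10 times the lowest background had a median fold of 3.46 and a median −log10 p of 8.88. The 29 members from 10 to 50 times had a median fold of 2.34, the 95 from 50 to 250 times 1.96, and the 46 above that 1.70 with a median −log10 p of 85.5. The Nutlin-3a list ran the same way, from a median fold of 4.03 (13 members) to 1.62 (26 members). Among other entries, most of which lay under 10 times, the median fold there was 4.30 over 181 DMSO entries and 4.58 over 184 Nutlin-3a entries, above the members. From 50 to 250 times it was 1.95 over 18 DMSO entries, and 1.79 over 14 Nutlin-3a entries where the members had 2.07. In a Poisson test a small fold passes more easily where the background is high, so fold and p are tied to background by construction here.

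Most clustered entries recurred under the other treatment. By an overlap of at least 1 bp, 191 of 218 DMSO members matched an entry of the Nutlin-3a list (87.6%, 95% Wilson interval 82.6 to 91.3%), where 74.3% of the whole DMSO list did. Of the Nutlin-3a members, 178 of 260 matched a DMSO entry (68.5%, 62.6 to 73.8%), where 56.9% of the whole list did. Among all other entries the shares were 64.1% and 48.6%. The intervals cover counting error over entries only. When 50% of both peaks had to overlap, the shares were 64.2% (DMSO) and 54.2% (Nutlin-3a) for members, 49.1% and 38.7% for all other entries, and 55.6% and 45.2% for the whole lists. By call, the 1-bp overlap held for 87.0% of DMSO members and 43.5% of others in the short call, and for 89.2% and 73.7% in the long call. For Nutlin-3a these were 64.3% and 32.3% (short), and 80.5% and 53.1% (long).

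The match was close at the summit. A Nutlin-3a summit lay within 10 bp of 128 DMSO members (58.7%, 52.1 to 65.1%), against 32.7% of the whole DMSO list and 12.9% of all other DMSO entries. A DMSO summit lay within 10 bp of 128 Nutlin-3a members (49.2%, 43.2 to 55.3%), against 26.5% of the whole list. Within the short call the shares were 59.9% of members and 20.7% of others for DMSO, and 49.3% and 17.2% for Nutlin-3a. Within the long call they were 48.6% and 8.76%, and 39.0% and 7.63%. Summits fell on the same base for 34 DMSO members (8.32% of the whole DMSO list did so) and for 35 Nutlin-3a members (6.75% of the whole list). Isolated entries far from genes had a summit within 10 bp in 21.1% of DMSO cases, and isolated entries within 5 kb of a gene end in 5.36%.

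**Figure D2:**
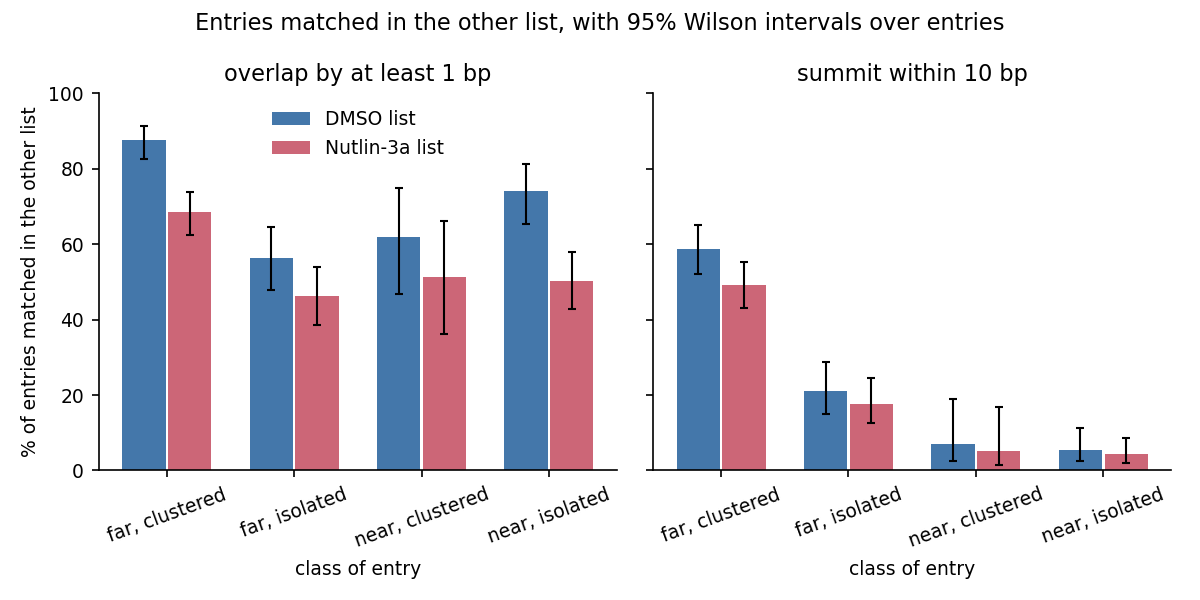
Share of entries (y, %) matched in the other list by overlap (left) or by a summit within 10 bp (right), for 4 classes set by gene distance (5 kb) and by 2 or more neighbours within 100 kb; error bars are 95% Wilson intervals over entries. Clustered entries far from genes have the highest bars in both panels, 58.7% and 49.2% for summits within 10 bp.

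Members of both lists formed 174 pairs that were each other's largest overlap. Their summits lay a median of 3.5 bp apart, and the Nutlin-3a entry was the wider one in 142 pairs. For 88 pairs the 2 pileups were whole and the 2 entries were assigned to the same inferred call (short or long). Whether the fold and p of each entry came from that call was not tested. A chromosome 16 pair had 186 times the lowest background for DMSO (34574256 to 34574316) and 2806 times for Nutlin-3a (34574247 to 34574408). The Nutlin-3a multiple was the lower one in 68 of the 88 pairs. Over the 88 pairs, the background multiples of the lists were correlated (Spearman's rho 0.95). The folds were correlated too (rho 0.74, or 0.52 over all 174 pairs). Points of a cluster share a locus and each list shares its libraries, so these are descriptions.

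The lowest background was lower under Nutlin-3a for both calls, at 0.780 of its DMSO value. MACS2 sets that floor from read numbers, so it bears on how raw pileups compare; its part in the ratios below was not tested. In the 88 pairs the Nutlin-3a pileup was a median of 0.794 times the DMSO pileup (quartiles 0.754 and 0.844), and it was the lower one in 77 pairs. In 60 pairs of other entries treated the same way the median was 1.04 (quartiles 0.804 and 1.49), and it was the lower one in 25. The raw background, before division by the floor, was a median of 0.690 times its DMSO value in the member pairs and 0.798 times in the others. As multiples of the floor, these ratios were 0.885 and 1.02. None of these ratios has a replicate check.

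**Figure D3:**
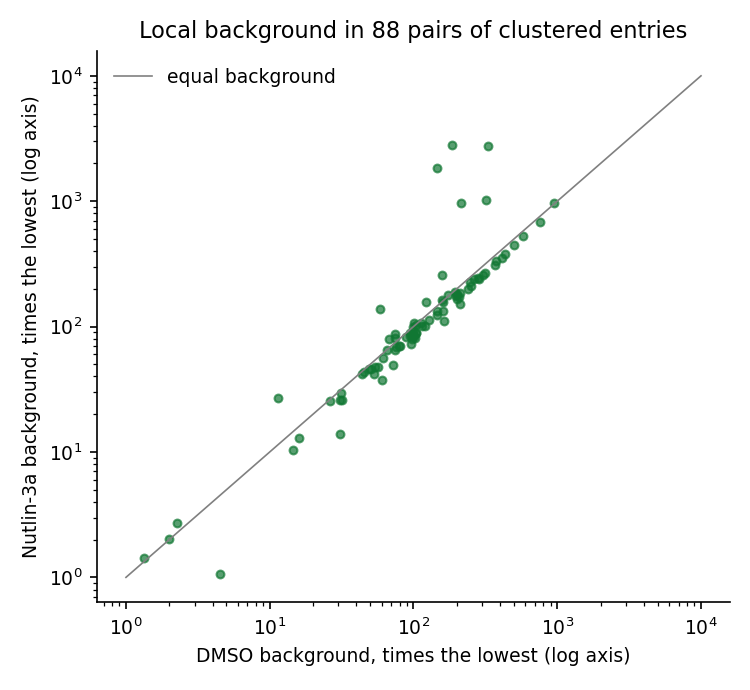
Local background of the DMSO entry (x) and the Nutlin-3a entry (y), each as a multiple of the lowest value of its list and assigned call, on log axes, for 88 pairs of clustered entries. The points rise together, at a Spearman's rho of 0.95.

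Unmatched members numbered 27 of 218 for DMSO and 82 of 260 for Nutlin-3a. In the whole lists 130 of 505 and 268 of 622 entries were unmatched. The nearest summit of the other list was a median of 1606 bp away for the unmatched DMSO members and 1400 bp for the Nutlin-3a ones, and within 100 kb for 26 of 27 and 82 of 82. Among members with a whole-number pileup, unmatched ones stood on lower background than matched ones. The medians were 33.1 against 121 times the lowest value (DMSO) and 69.2 against 99.7 times (Nutlin-3a). They cover 27 of 27 unmatched and 154 of 191 matched DMSO members. For Nutlin-3a they cover 70 of 82 and 109 of 178, so coverage was uneven. The median −log10 p, over all members, was also lower in unmatched ones, 12.8 against 48.6 (DMSO) and 33.2 against 54.8 (Nutlin-3a). Of the 82 unmatched Nutlin-3a members, 20 were exactly 50 bp wide, against 7 of the 178 matched ones. For DMSO these were 8 of 27 and 21 of 191. In the whole lists, 38 of 622 Nutlin-3a and 45 of 505 DMSO entries had this width, which was the smallest in both.

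Joined over both lists, the members formed 29 clusters on 17 chromosomes. Both lists had members in 23 of them, and 23 clusters held 5 or more members, 464 in all. The 6 clusters that the selection named, on chromosomes 4, 5, 10 and 16, held 111 DMSO members (50.9%) and 124 Nutlin-3a members (47.7%). The named genes below are landmarks, the protein-coding genes with the nearest end.

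**Figure D4:**
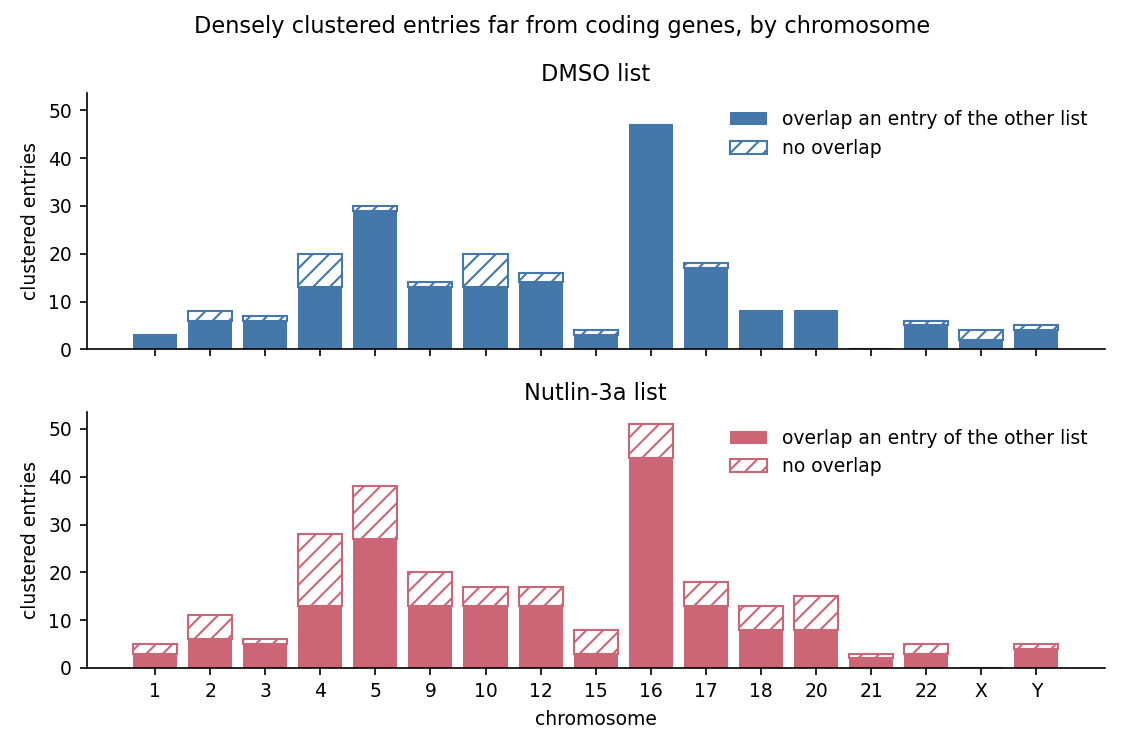
Number of clustered entries (y) by chromosome (x) for DMSO (top) and Nutlin-3a (bottom), split into entries that overlap the other list (filled) and entries that do not (hatched). Chromosome 16 has the tallest bars, 47 and 51, followed by chromosome 5 with 30 and 38.

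Chromosome 5 held the fullest cluster, 30 DMSO and 38 Nutlin-3a members between 49601439 and 49667097. It lay 729232 bp from EMB, the nearest coding gene. Of these, 29 DMSO and 27 Nutlin-3a members overlapped the other list. Up to 11 summits of a list fell within 5 kb. The median fold was 1.92 (DMSO) and 1.78 (Nutlin-3a), and the median background 157 and 110 times the lowest value. The entry with the highest fold here in the DMSO list covered 49645527 to 49645578, with a fold of 4.74 and a −log10 p of 308. Its Nutlin-3a partner had its summit 2 bp away, a −log10 p of 281 and a fold of 1.33. Its printed digits do not settle a pileup.

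Chromosome 16 held 3 clusters with 47 DMSO members, all of them matched, and 51 Nutlin-3a members, 44 of them matched. The first, from 34573000 to 34625185, held 20 members of each list at median folds of 1.64 and 1.80. It contained the highest background among the 181 DMSO members with a whole-number pileup, 4209 times the lowest value. That entry, from 34592997 to 34593162, had a solved pileup of 10558. A nearby DMSO entry, from 34593232 to 34593287, had 403 times. How often so large a pileup passes as whole when fold and p come from different calls was not tested. The second, from 38266295 to 38280479, held 14 and 15 members, and 14 of 14 and 14 of 15 overlapped the other list, with median spacings of 374 and 381.5 bp. It lay 3876483 bp from LOC124903767. The last, from 46386389 to 46401616, held 13 and 16 members, which covered 17.0% and 24.3% of its length. The nearest gene was SHCBP1, 177090 bp away.

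**Figure D5:**
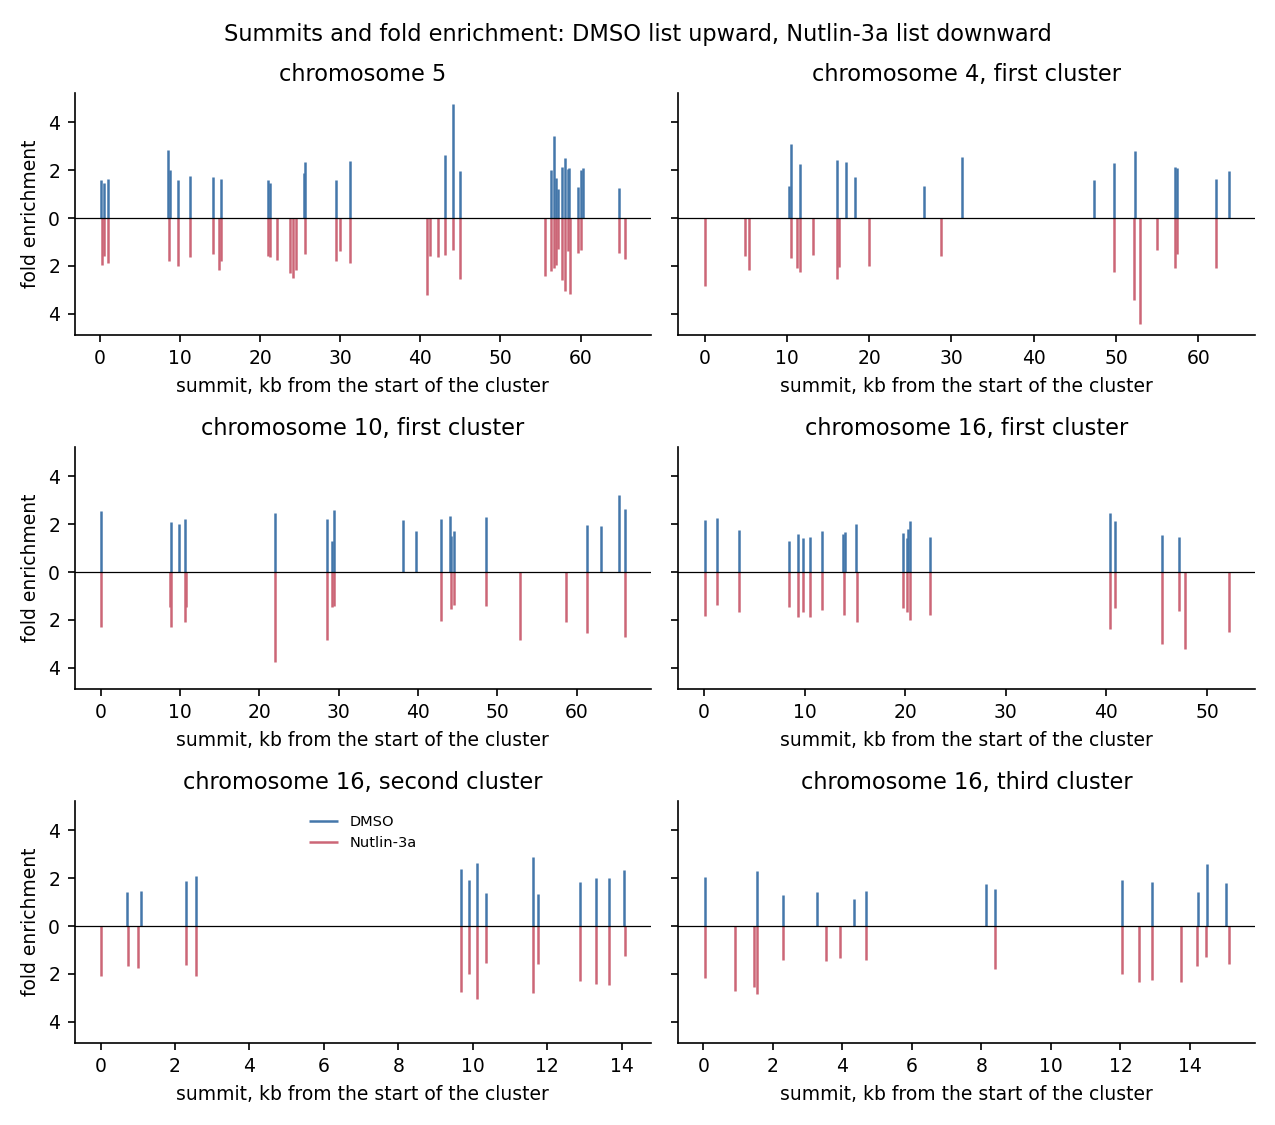
Summit positions (x, kb from the start of each cluster) and fold enrichment (y) in the 6 clusters named by the selection, with DMSO entries drawn upward and Nutlin-3a entries downward. In the second cluster on chromosome 16, 14 of 14 DMSO members overlapped the other list, and in the cluster on chromosome 4, 8 of 15 did.

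On chromosome 4, 7 of 20 DMSO and 15 of 28 Nutlin-3a members were unmatched. Over the whole lists, 130 of 505 DMSO and 268 of 622 Nutlin-3a entries were. The first cluster (49092359 to 49156028) held 15 and 18 members, of which 8 in each list overlapped the other. Its nearest coding gene end was that of CWH43, 30301 bp away. The second (49635503 to 49711888) held 5 and 10 members, and 5 of each overlapped. It included the widest DMSO member, 758 bp from 49708188 to 49708945, with a fold of 1.44. In the first cluster, a Nutlin-3a entry from 49145270 to 49145320 had the second-highest fold among unmatched Nutlin-3a members, 4.41, and the nearest DMSO summit was 719 bp away.

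The cluster on chromosome 10 from 41830828 to 41896986 held 19 DMSO and 17 Nutlin-3a members, 13 of each matched, 677266 bp from ZNF33B. It held the most extreme p-value of the DMSO list, a −log10 p of 435 for an entry from 41859812 to 41860073 whose fold was 1.30 and ranked 490 of 505. Its Nutlin-3a partner had a summit 2 bp away, a −log10 p of 400 and a fold of 1.47, which ranked 575 of 622. The next members by −log10 p were the same places in both lists, both in the chromosome 5 cluster. The summits of each pair lay 1 bp apart, and the −log10 p values were 403 and 369 (DMSO) and 340 and 324 (Nutlin-3a). No pileup is given for these entries, since none could be settled.

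Chromosome 9 carried the highest folds of the Nutlin-3a members. Its cluster, from 60552895 to 60686922 near SPATA31A5, was the longest at 134028 bp, with 14 DMSO and 20 Nutlin-3a members. A Nutlin-3a entry from 60679314 to 60679363 had a fold of 14.8 (rank 22 of 622) from a pileup of 90, and the nearest DMSO summit was 686 bp away. A second Nutlin-3a entry, from 60663785 to 60663863, had a fold of 13.0 from a pileup of 31. Its DMSO partner had a summit 5 bp away and a pileup of 30, but a fold of 3.49. The background under that pair was 1.07 times the lowest value for Nutlin-3a and 4.49 times for DMSO. The raw pileups were close while the folds were not, but raw pileups are not scaled between the lists as these backgrounds are. Another Nutlin-3a entry, from 60666580 to 60666675, had a fold of 7.05.

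On chromosome 12, clusters from 34821725 to 34831689 (4 DMSO and 5 Nutlin-3a members, near ALG10) and from 37236003 to 37266876 (12 and 12, near ALG10B) had median folds between 1.54 and 2.04. On chromosome 17, the cluster from 26830165 to 26885973 near WSB1 held 10 and 12 members, and 10 of the 10 DMSO ones lay within 5 kb. Its median background was 468 times (DMSO) and 334 times (Nutlin-3a) the lowest value. An unmatched Nutlin-3a entry at its edge, from 26830165 to 26830364, had a fold of 4.19. A smaller cluster from 21906329 to 21985498 near KCNJ18 held 4 and 5 members at lower background, 31.4 and 25.9 times the lowest value.

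The cluster on chromosome 20 from 28494666 to 28498293 was the most densely covered of those with more than 1 member of the same list. It held 8 DMSO and 9 Nutlin-3a members within 3628 bp, of which they covered 37.7% and 50.8%. Its median background was also the highest of the clusters, 644 times the lowest value (DMSO) and 352 times (Nutlin-3a), and its DMSO median fold was 1.45. A second chromosome 20 cluster, from 26600328 to 26606405 near ZNF337, held 6 Nutlin-3a members. The DMSO list had 2 entries there, too few to be members, and 2 of the 6 Nutlin-3a members overlapped a DMSO entry. On chromosome 18, clusters near ROCK1 from 20561726 to 20601421 (5 and 7 members) and from 20938158 to 20940078 (3 and 6 members) were found. The nearest summit of the second lay 6930 bp from ROCK1.

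Smaller clusters in both lists lay on chromosomes 1, 2, 3, 15 and Y. On chromosome 2, 4 DMSO and 6 Nutlin-3a members between 89828601 and 89840357 lay within the immunoglobulin kappa locus (IGK), and 4 and 5 lay between 94500253 and 94555158 near AQP7B. Chromosome 3 held 6 and 6 members from 91519086 to 91553075, 2037044 bp from EPHA3. Chromosome 15 held 4 and 8 members from 19776279 to 19789823, with −log10 p of at most 19.6 and 40.8. Chromosome 1 held 3 and 5 members from 125176261 to 125184095 near LINC02798, 3713247 bp away. Chromosome Y held 5 and 5 from 11297930 to 11327718, a span that also contains 3 DUX4-like pseudogenes (DUX4L16, DUX4L17 and DUX4L18).

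A chromosome 22 cluster had low measured background. Its 6 DMSO and 5 Nutlin-3a members, from 46066693 to 46076810, lay inside LOC124905135, and the nearest summit was 22271 bp from a gene end. The background was 1.35 to 2.43 times the lowest value for DMSO and 1.43 to 2.68 times for Nutlin-3a, with median folds of 3.38 and 4.20. This cluster contained the widest Nutlin-3a member, 1192 bp from 46072435 to 46073626, with a fold of 5.49 and a DMSO partner of 459 bp with a fold of 3.30. Together with the members in BAHCC1 and TCF7L2, the 14 members inside coding genes had a median background of 2.06 (DMSO) and 2.02 times (Nutlin-3a). The 464 others had 107 and 87.6 times. One DMSO entry of the chromosome 22 cluster, from 46067642 to 46067886, had a fold of 4.74 and no overlap in the Nutlin-3a list.

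Clusters with members in 1 list alone numbered 4 for DMSO and 2 for Nutlin-3a. On chromosome X, 4 DMSO members lay between 62475755 and 62501775, and the Nutlin-3a list had 1 entry there. These included the highest folds of any DMSO members, 5.56 (62501726 to 62501775, pileup 313, −log10 p 126) and 5.27 (62475755 to 62475848, pileup 25, −log10 p 12.8). The first overlapped the Nutlin-3a entry and the second lay 25715 bp from it. On chromosome 17 from 26594777 to 26603946 there were 3 DMSO members and 2 Nutlin-3a entries. All 3 of these DMSO members overlapped a Nutlin-3a entry. On chromosome 21 from 7926154 to 7950231 there were 3 Nutlin-3a members and 2 DMSO entries. Of these Nutlin-3a members, 2 overlapped a DMSO entry. A cluster with members in 1 list alone is thus not one without entries in the other list. The chromosome 21 group included a Nutlin-3a fold of 9.74 (7950182 to 7950231). A lone DMSO member on chromosome 3 (90683382 to 90683463, fold 4.72, pileup 13) had its nearest Nutlin-3a summit 193988 bp away. The last, in TCF7L2 on chromosome 10 (112955589 to 112955761), had 2 further DMSO entries and 2 Nutlin-3a entries within 100 kb.

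Entries beside the limits of the rule were mixed. Among DMSO entries with 2 or more neighbours, those just inside the gene distance lay 5362 bp from BAHCC1 (fold 3.53) and 5473 bp from TCF7L2 (fold 3.04), and those just outside lay 4736 bp from TCF7L2 (2.81) and 4720 bp from TNRC18 (3.41). In the Nutlin-3a list, entries at BAHCC1 lay 5283 bp (fold 2.88, inside) and 4639 bp (3.49, outside) from the gene end. On the neighbour count, 11 DMSO and 3 Nutlin-3a members had exactly 2 other entries, while 40 and 42 entries far from genes had 1 and were left out.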

How the data were processed

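HCT116 libraries (2 RFX7 ChIP and 2 input libraries for DMSO and for Nutlin-3a) were grouped by antibody or input and treatment from the sample titles. The submitters' processing notes name the build hg38, MACS2 2.2.7.1 and bedtools 2.29.2 without roles. The aligner and whether replicates were pooled are not given in the sources used here. The deposited lists, 1 per treatment in narrowPeak layout without a header, give each entry a fold enrichment (ratio), −log10 p, −log10 q and a score, all the authors' own values. Every deposited entry was used. Fold enrichment describes or ranks entries within a list. Folds of paired entries from the 2 lists are also set side by side or correlated, as description without a test.

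Gene ends came from RefSeq (GRCh38.p14, 20056 protein-coding genes). Pileup and background were solved from fold and p under MACS2's definitions (pseudocount of 1), and recovery of known values was checked on simulated data. Each simulated entry took fold and p from the same call. How often an entry with fold and p from different calls passes as whole was therefore not checked. A pileup was called whole when a whole number lay within 0.02 reads of the range that the printed digits allow. It was left unresolved when that range exceeded 0.5 reads. Entries were assigned to 2 inferred calls by the curve of q against p through peaks narrower than 150 bp (tolerance 0.06). The 4 DMSO and 12 Nutlin-3a members beyond that curve were not assigned.

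The rule for the members, the lists and the measures were chosen with earlier results of these data known. Regions were named by rule: all clusters, each list's 3 members with the highest fold or −log10 p, the 3 unmatched ones with the highest fold, and the widest. Other entries named beside them were chosen after their values were seen. Scripts used Python with numpy 2.4.6, pandas 2.3.3 and scipy 1.17.1. A planned description of sequence was not made, because no genome sequence was used.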

Additional observations from a re-analysis of the deposited data

How the results depend on the processing

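No paired analysis was possible because the values are not split by replicate (1 list for a treatment), and for the same reason no replicate was left out. Of 84 alternative values for the number of members, the matched share, the number of clusters and the median fold, 72 stayed near the value given. Near means within 1.5 times for counts and within the 95% interval of the share or median otherwise. The number of members stayed near under all its alternatives. The matched share became 82.2% (DMSO) with 1 or more neighbours, 64.2% and 54.2% (DMSO and Nutlin-3a) with overlap of 50% of both peaks, 78.9% (DMSO) with summits within 100 bp and 77.7% (Nutlin-3a) with a gap of up to 500 bp. DMSO clusters numbered 41 with a window of 200 kb, 48 with 1 or more neighbours, 16 with 4 or more and 17 at −log10 q of at least 10. Nutlin-3a clusters numbered 49 with 1 or more neighbours. Restriction to whole-number pileups, chosen after seeing the data, moved the Nutlin-3a share to 60.9% and its median fold to 2.15. The cause was not tested. Keeping members of the longest gene-free stretches alone, also chosen afterwards, moved none of the 8 values past these limits. Depth per library is unknown, so an entry missing from a list is not shown to be absent from the cells.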
